A study of Mus musculus with 6 samples.

Results

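The collagens are the chains that build most of the extracellular matrix, and their genes were taken here from expression arrays of abdominal white adipose tissue (WAT) of *hNAG-1* transgenic and wild-type (WT) mice. A gene was counted as a collagen when its name on the array was Col, the number of the collagen type, a and the number of the chain. This rule found 40 genes on 78 probes, of 27962 gene names on 41174 probes, and it used no measured value. Of the 40 genes, 38 had a brightest probe that 3 or more of the 6 arrays read well above background, and these entered the comparison, in which 21232 genes were tested. The 2 others were Col10a1, well above background on 2 WT arrays and on no hNAG-1 array, and Col19a1, whose brightest probe was not well above background on any array.

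All mice were females of the C57/BL6 strain and 30 wk old. hNAG-1 mice carry a transgene for human NAG-1, the NSAID-activated gene also called GDF15, a secreted protein related to the TGF-β family. The methods of the study place its expression in most tissues and describe it as high in WAT. The arrays came from a single transgenic line. Each of the 3 WT and 3 hNAG-1 arrays held RNA pooled from 2 mice, which makes 6 mice of each genotype, and the pools are the replicates.

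A collagen chain carries long runs in which glycine recurs at a fixed short step, and 3 chains wind around each other into a triple helix. Fibrillar collagens (types I, II, III, V, XI, XXIV and XXVII) pack side by side into the cables that give tissue its strength. Type IV collagen forms the sheet-like network of basement membranes, and in fat every adipocyte sits in such a membrane. Type VI collagen forms beaded filaments just outside the basement membrane, is abundant around adipocytes, and the end of its α3 chain is released as the fragment endotrophin. Types XV and XVIII (the multiplexins) link basement membranes to the matrix around them, FACIT collagens decorate the surface of fibrils, and transmembrane collagens stay anchored in the cell surface. The 40 genes fall into 11 fibrillar, 6 type IV, 3 type VI and 20 others, the latter made of 9 FACIT, 4 transmembrane, 3 type VIII and X, 2 multiplexin and 2 further genes (Col7a1 and Col28a1). Of the 20 others, 18 were measured.

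The glycine repeat can be read in the array itself. Of the 78 probes, each of 60 bases, 3 lie wholly in such a run, with a glycine codon (GGN) at every 9th base in 1 reading frame and no stop codon in that frame. They are exceptions among the collagen probes and are shown for the repeat itself. The glycine codons are in capitals and the sequence is as the scanner files give it. None of the 3 is the brightest probe of its gene. Coordinates are on mouse build mm7, as the scanner files give them, and each span is longer than the probe because it crosses introns. The Col5a1 probe lies at chr2:27994034-27996457 on the plus strand, the Col5a3 probe at chr9:20655471-20656200 on the minus strand and the Col11a2 probe at chr17:32131401-32131567 on the plus strand.
Col5a1: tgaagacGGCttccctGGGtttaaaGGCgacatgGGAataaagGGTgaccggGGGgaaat
Col5a3: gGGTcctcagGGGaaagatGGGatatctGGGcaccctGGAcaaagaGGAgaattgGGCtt
Col11a2: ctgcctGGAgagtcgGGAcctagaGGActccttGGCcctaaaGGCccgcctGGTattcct

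Values are log2 of the scanner software's processed signal minus the 75th percentile of the same array, called log2 signal below, and a log2 fold change is the hNAG-1 mean minus the WT mean. The 75th percentile itself ran from 957.6 to 1028.5 in WT and from 657.3 to 896.0 in hNAG-1 mice. Between 71.2% and 82.0% of spots were well above background, and no collagen probe was saturated on any array. A single slide carried all WT arrays together with hNAG-1 replicate 1, while hNAG-1 replicates 2 and 3 lay on another slide with no WT array. WT replicates 1 and 2 had higher smooth muscle markers than the other 4 arrays, WT replicate 2 had higher exocrine pancreas markers than the other 5, and skeletal muscle markers were highest in WT replicate 1 and hNAG-1 replicate 2. In whole tissue, fewer cells of a type and less RNA per cell cannot be told apart.

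Collagen genes were mostly lower in hNAG-1 mice. The log2 fold change was below 0 for 27 of the 38 measured genes and above 0 for 11, with a median of -0.20 against 0.06 for all genes, of which 12510 were above 0. At an unadjusted p under 0.05 in limma, 11 collagen genes were lower (28.9% of those measured) and 1 was higher (2.63%). The same threshold marked 4.07% of all genes as lower and 8.4% as higher. On the slide that held both genotypes, with 3 WT arrays and 1 hNAG-1 array, the median of all genes was -0.03. That of the measured collagen genes was -0.37 there. The hNAG-1 arrays of the 2 slides held different pools, so slide and pool cannot be told apart. All 3 hNAG-1 arrays lay below all 3 WT arrays for 13 collagen genes (34.2%), against 6.57% of all genes, and above them for 1 (2.63%), against 13.6%. The 11 and the 13 lower genes include Col28a1, well above background on 3 WT arrays but only 1 hNAG-1 array. Of the 34 collagen genes well above background on all 6 arrays, 12 (35.3%) were lower at the unadjusted threshold and none higher. Of all genes filtered in this way, 4.97% were lower and 9.96% higher. In limma none of the collagen genes had an adjusted p under 0.05, and neither had any other gene (0.0%). The smallest adjusted p among collagens was 0.175, for Col6a1 and Col6a2. When limma's variances followed a trend with intensity and were made robust to outliers, these 2 genes passed at adjusted p values of 0.032 and 0.0343, and they were the only collagens among 24 lower and 107 higher genes. The count of 11 lower genes depended on single arrays, being 5 (13.2%) without WT replicate 1 and 6 (15.8%) without hNAG-1 replicate 2, where 2.52% and 3.08% of all genes were lower. With WT replicate 3, the WT array with low smooth muscle markers, as the only WT array, 7 collagen genes (18.4%) were lower, against 2.59% of all genes, and 2 were higher. With normexp background correction 2 collagen genes (5.26%) were lower and none higher, against 0.532% and 1.52% of all genes.

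**Figure D1:**
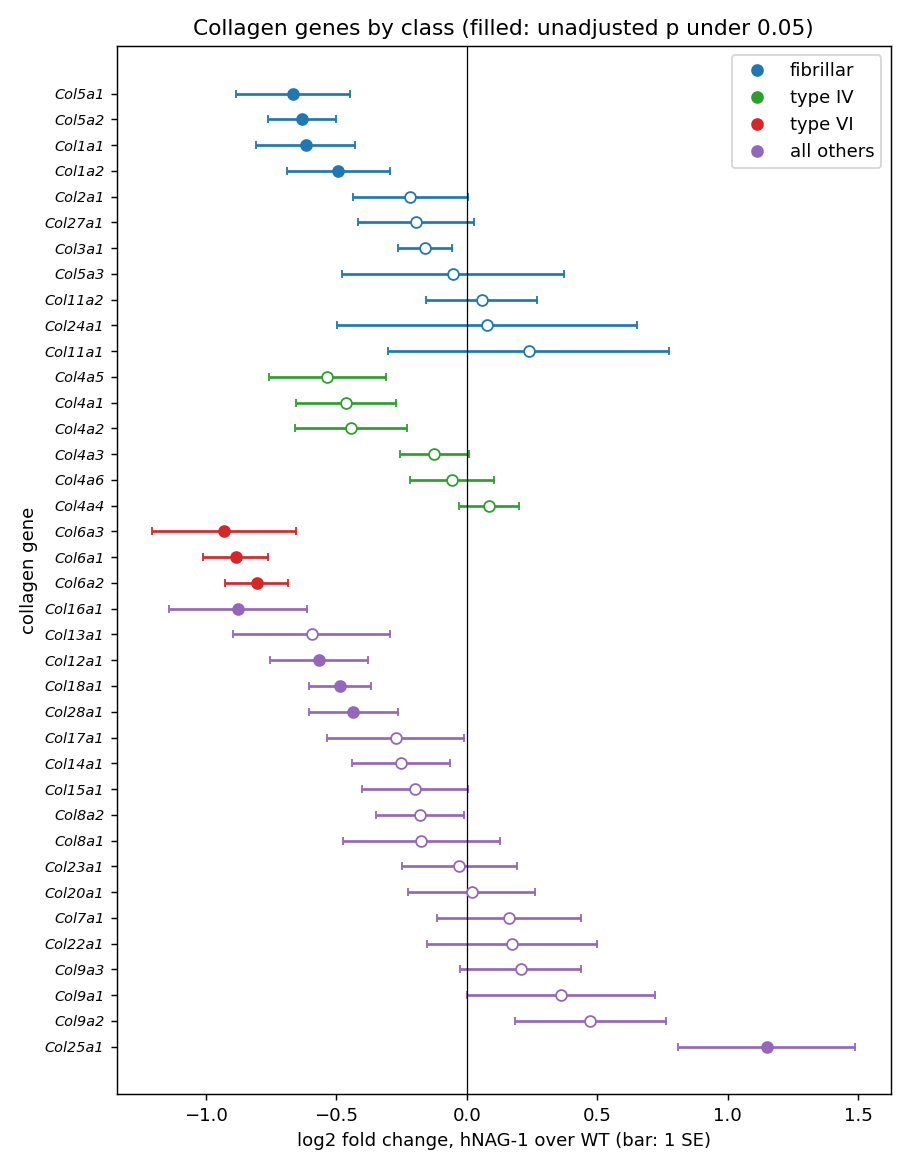
Log2 fold change (hNAG-1 over WT, x axis) of the 38 measured collagen genes (y axis), ordered within each class, with bars of 1 standard error and filled points for an unadjusted p under 0.05 in limma. The 3 type VI genes lie between -0.93 and -0.81, and Col25a1 at 1.15 is the single filled point above 0.

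Over all 6 arrays the direction differed between brighter and dimmer probes, but on the shared slide and with normexp both were mostly below 0. Of the 38 genes, 19 had a mean log2 signal above the 75th percentile of the arrays, and the log2 fold change of each of these 19 was below 0, with a median of -0.46. Over all 8225 genes of that brightness the median was 0.05, and 3299 of them were below 0. Of these 19 genes, 9 were lower at an unadjusted p under 0.05, against 4.3% of all brighter genes, and 11 lay without overlap below WT, against 7.4%. The 19 dimmer collagen genes had 8 values below and 11 above 0, with a median of 0.06 against 0.07 for all genes of that range. All 19 brighter genes stayed below 0 with the array median as the centre and with quantile normalization. There were 16 below 0 without WT replicate 3, 17 without hNAG-1 replicate 1, 17 with averaged probes and 18 without hNAG-1 replicate 2. With normexp background correction, which moved the median of all genes to -0.20, 16 of the 19 were below 0, with a median of -0.29 against 0.18 for all brighter genes, and all 19 dimmer collagen genes were below 0, with a median of -0.45 against -0.38 for all dimmer genes. Within the shared slide, 18 of the 19 brighter genes were below 0, with a median of -0.65 against 0.06 for all brighter genes, and so were 17 of the 19 dimmer ones, with a median of -0.20 against -0.11 for all dimmer genes.

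**Figure D2:**
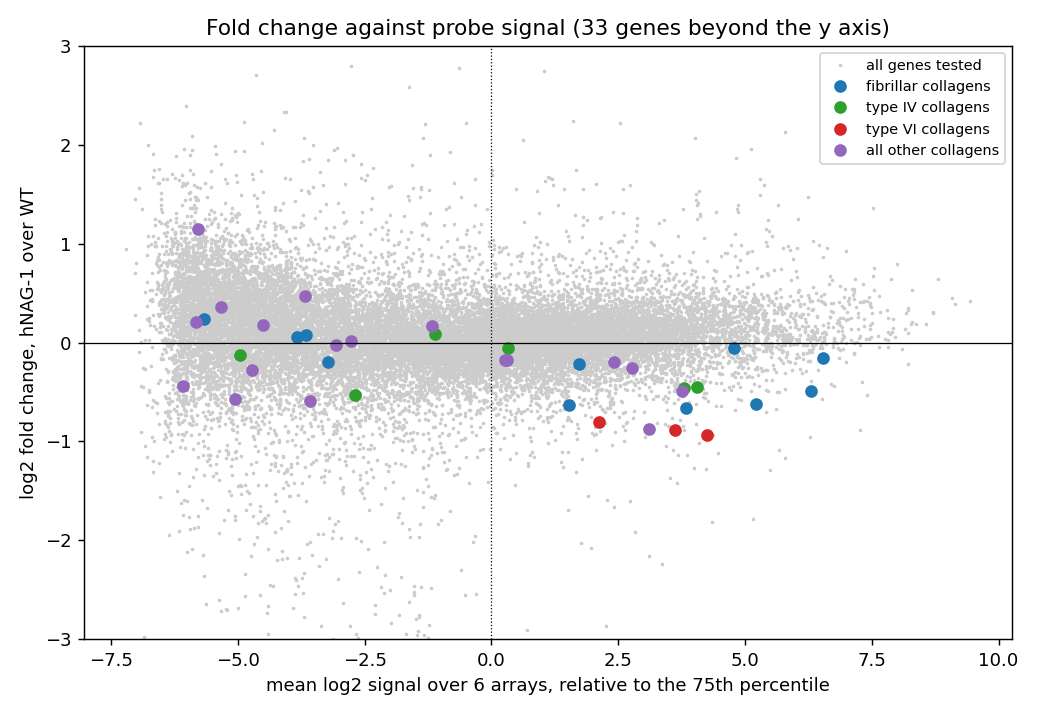
Log2 fold change (hNAG-1 over WT, y axis) against mean log2 signal over the 6 arrays (x axis, with 0 at the 75th percentile, dotted line) for all genes tested (grey) and the collagen genes by class (colours). To the right of the dotted line the 19 collagen genes all lie below 0, to its left they lie on both sides (within the shared slide 17 of the 19 dimmer genes lay below 0), and 33 genes of the grey cloud fall beyond the axis limits of 3.

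hNAG-1 replicate 1 held the lowest value of 10 of the 19 brighter genes, replicate 2 that of 8 and replicate 3 that of 1. No WT array held the lowest value of any of them. The highest values were spread over the WT arrays, with 6 genes in replicate 1, 4 in replicate 2 and 8 in replicate 3, and 1 gene (Col4a6) was highest in hNAG-1 replicate 1. The hNAG-1 arrays were therefore lowest for all 19 genes, and replicate 3 of them was the closest to WT.

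**Figure D3:**
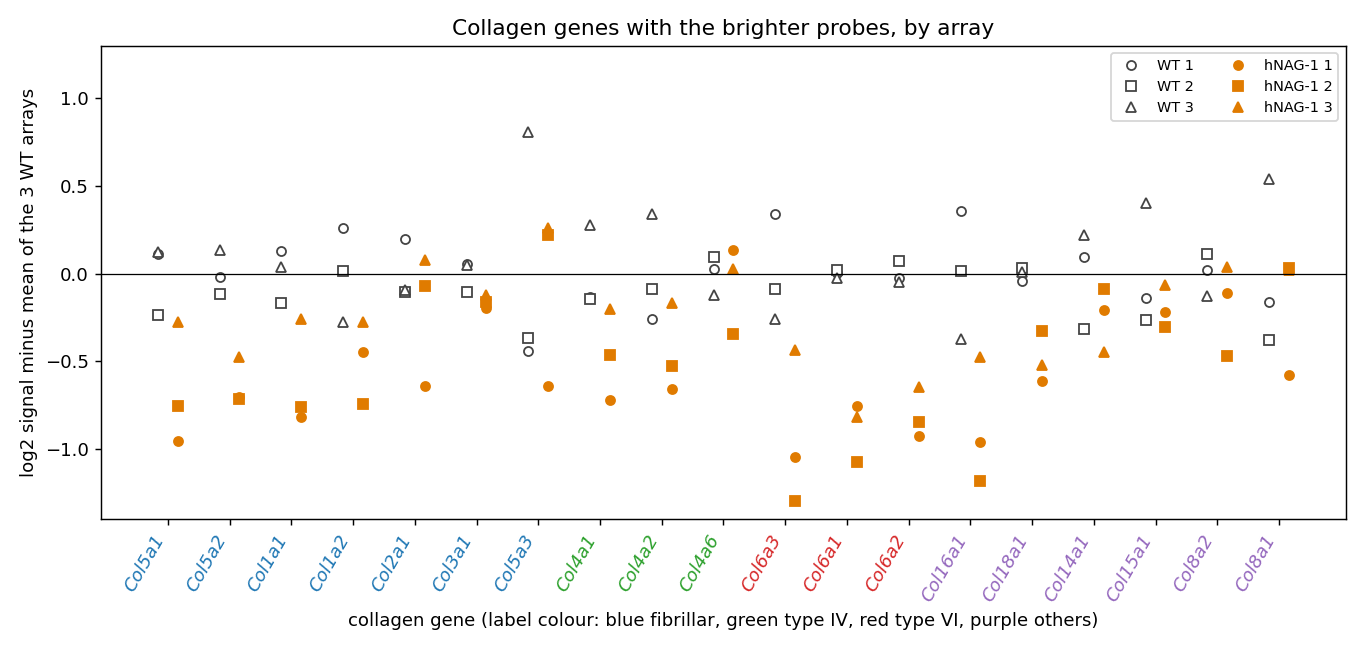
Log2 signal of each array minus the mean of the 3 WT arrays (y axis) for the 19 collagen genes above the 75th percentile (x axis, grouped by class), with open symbols for WT, filled symbols for hNAG-1 and a symbol shape for each replicate. The groups are separate for 11 genes, among them Col6a1 and Col6a2, where the WT arrays lie close together, and they overlap widely for Col5a3, Col8a1 and Col4a6.

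Of the 4 classes, type VI collagen had the lowest median. Its genes were all among the 19 brighter collagen genes, whose median was -0.46, while each other class held dimmer genes too. All 3 genes measured under this rule were lower at an unadjusted p under 0.05 in limma, against 4.07% of all genes. All 3 lay below WT without overlap, against 6.57% of all genes. The median log2 fold change of the 3 was -0.89, which left hNAG-1 mice at 0.541 of the WT level. Within the shared slide the median was -0.93, and with WT replicate 3 as the only WT array it was -0.76.

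Col6a1, which encodes the α1 chain, had a log2 signal of 4.07, 4.09 and 4.04 in WT and 3.31, 2.99 and 3.25 in hNAG-1 mice. The SD was 0.023 among the WT arrays and 0.165 among the hNAG-1 arrays (n = 3 each), and every hNAG-1 array lay below every WT array by several times that spread. The log2 fold change was -0.89 ± 0.12 (SE; limma, adjusted p = 0.175), a level 1.85-fold higher in WT mice. Col6a2, the α2 chain, read 2.50, 2.60 and 2.48 in WT and 1.60, 1.68 and 1.88 in hNAG-1 mice. Its log2 fold change was -0.81 ± 0.12 (SE; limma, adjusted p = 0.175). Again the spread within each genotype was small against the distance between them. Col6a3, the long α3 chain from which endotrophin is cut, read 5.05, 4.62 and 4.45 in WT and 3.66, 3.41 and 4.27 in hNAG-1 mice. Its log2 fold change of -0.93 ± 0.28 (SE; limma, adjusted p = 0.301) was as large as those of the other 2 chains, with a larger error, and hNAG-1 replicate 3 came near WT replicate 3. Both further probes that measured these genes were lower too, at -0.745 ± 0.295 for Col6a2 and -0.631 ± 0.368 (SE) for Col6a3, but without a clear gap between genotypes. On the Col6a2 probe WT replicate 2 and hNAG-1 replicate 3 both read 0.32. On the Col6a3 probe hNAG-1 replicate 3, at -3.24, lay above WT replicate 3, at -3.72.

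The brightest probes of Col6a1 and Col6a2 lie on the minus strand at chr10:76364050-76364109 and chr10:76251837-76251896, and that of Col6a3 at chr1:90671098-90671157 on the minus strand (mm7). Col6a1 and Col6a2 are neighbours, 85162 bases apart on the same strand of chromosome 10, while Col6a3 lies on chromosome 1. The 250 bases before each start site are shown because these 3 genes were lower together. They come from RefSeq on GRCm38.p6, all on the minus strand, at chr10:76726045-76726294 for Col6a1, chr10:76623631-76623880 for the outer of the 2 listed starts of Col6a2, and chr1:90843972-90844221 for Col6a3. Capitals mark GGGCGG read on either strand.
Col6a1: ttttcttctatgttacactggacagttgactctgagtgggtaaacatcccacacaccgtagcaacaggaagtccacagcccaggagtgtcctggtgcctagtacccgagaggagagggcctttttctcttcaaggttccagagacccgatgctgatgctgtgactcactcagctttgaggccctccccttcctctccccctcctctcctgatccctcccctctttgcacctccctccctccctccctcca
Col6a2: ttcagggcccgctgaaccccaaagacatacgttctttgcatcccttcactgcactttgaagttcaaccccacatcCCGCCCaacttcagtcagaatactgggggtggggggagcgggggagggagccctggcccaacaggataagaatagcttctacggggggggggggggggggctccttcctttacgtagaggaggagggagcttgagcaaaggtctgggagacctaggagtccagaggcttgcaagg
Col6a3: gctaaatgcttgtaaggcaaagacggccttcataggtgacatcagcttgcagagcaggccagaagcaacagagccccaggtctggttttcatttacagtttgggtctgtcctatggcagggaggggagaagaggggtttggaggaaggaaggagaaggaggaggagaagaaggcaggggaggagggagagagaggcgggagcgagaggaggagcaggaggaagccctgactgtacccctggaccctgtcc

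GGGCGG, known as the GC box, was searched on both strands in these windows. So were CCAAT and the TATA box, spelled TATAAA. Hits of different motifs did not overlap. The windows of Col6a1 and Col6a3 held none of the 3, the outer window of Col6a2 held GGGCGG once, and the window of its inner start, not shown, held it 3 times. A window was listed for 32 of the 40 collagen genes, 35 windows in all. GGGCGG stood in 54.3% of them against 32.7% of all 32851 windows, CCAAT in 34.3% against 33.8% and TATAAA in 14.3% against 12.4%. A match of letters does not show a bound factor.

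Over the 11 fibrillar genes the median log2 fold change was -0.20, with 8 genes below 0. At an unadjusted p under 0.05 in limma 4 were lower, against 4.07% of all genes. Without overlap, 5 lay below WT, against 6.57% of all genes. The 6 chains of types I, III and V, the fibrillar collagens of connective tissue in general, were all below 0, with a median of -0.55. The other 5 chains, of the cartilage types II and XI and the minor types XXIV and XXVII, had a median of 0.06, and none of them passed the unadjusted threshold. Within the shared slide, with 1 hNAG-1 array, the medians were -0.68 for chains I, III and V and -0.65 for the others. With normexp they were -0.37 and -0.39, where the median of all brighter genes was 0.18 and of all dimmer genes -0.38. Chains I, III and V were all among the brighter genes, and of the other chains only Col2a1 was. The class median was -0.65 within the shared slide, -0.39 with normexp and -0.08 with averaged probes.

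Type I collagen, the main component of fibrils in most tissues, is built of 2 α1 chains and 1 α2 chain. Col1a1 read 5.66, 5.36 and 5.57 in WT and 4.71, 4.77 and 5.27 in hNAG-1 mice, a log2 fold change of -0.62 ± 0.19 (SE; limma, adjusted p = 0.312). Its other 2 probes gave -1.13 and -0.81. Col1a2 read 6.82, 6.57 and 6.28 in WT and 6.11, 5.81 and 6.28 in hNAG-1 mice, a log2 fold change of -0.49 ± 0.20 (SE; limma, adjusted p = 0.397). The lowest WT array and the highest hNAG-1 array of Col1a2 were equal to 2 decimals, so its groups only just parted. Without WT replicate 1 its log2 fold change was -0.36, and with WT replicate 3 as the only WT array it was -0.22.

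Type III collagen, a trimer of 1 kind of chain that shares fibrils with type I, was the steadiest of the group. Col3a1 read 6.68, 6.52 and 6.67 in WT and 6.43, 6.46 and 6.50 in hNAG-1 mice. The hNAG-1 arrays lay below the WT arrays by a small margin, with a log2 fold change of -0.16 ± 0.11 (SE; limma, adjusted p = 0.567). Its other 2 probes gave -0.41 and 0.13, and normexp background correction gave 0.07, so the direction of Col3a1 was not settled.

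Type V collagen starts fibrils and limits their width. Col5a1 read 4.29, 3.94 and 4.30 in WT and 3.22, 3.42 and 3.90 in hNAG-1 mice, a log2 fold change of -0.67 ± 0.22 (SE; limma, adjusted p = 0.335), and the glycine-run probe shown above gave -0.58. Col5a2 read 1.83, 1.73 and 1.98 in WT and 1.14, 1.13 and 1.37 in hNAG-1 mice, a log2 fold change of -0.63 ± 0.13 (SE; limma, adjusted p = 0.217). Each hNAG-1 array of both genes lay below each WT array. Col5a3 departed from its partners, with 4.38, 4.45 and 5.63 in WT and 4.18, 5.04 and 5.08 in hNAG-1 mice. Its log2 fold change of -0.05 ± 0.43 (SE; limma, adjusted p = 0.967) rested on WT replicate 3, without which it was 0.35, and its glycine-run probe gave 0.22. Col5a2 and Col3a1 are neighbours, 24625 bases apart on chromosome 1 (GRCm38.p6), with log2 fold changes of -0.63 and -0.16.

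The remaining fibrillar genes overlapped between genotypes. Col2a1, of cartilage, read 2.04, 1.74 and 1.75 in WT and 1.2, 1.77 and 1.92 in hNAG-1 mice, with a log2 fold change of -0.22 ± 0.22 (SE) and 0.16 for its other measured probe. Col27a1 read -3.07, -2.75 and -3.56 in WT and -3.39, -3.34 and -3.23 in hNAG-1 mice, with a log2 fold change of -0.20 ± 0.22 (SE). Col11a2 read -3.67, -3.64 and -4.27 in WT and -3.71, -3.69 and -4.01 in hNAG-1 mice, a log2 fold change of 0.06 ± 0.21 (SE). Over all arrays these 3 differences were no larger than their errors. That of Col2a1 was -0.65 within the shared slide and -0.000091 without hNAG-1 replicate 1, and that of Col27a1 was -0.41 without WT replicate 3 and -0.0074 without WT replicate 2, so both rested on single arrays. Col24a1 ranged from -4.28 to -2.94 in WT and from -4.72 to -2.92 in hNAG-1 mice, and Col11a1, well above background on 2 arrays of each genotype, from -6.48 to -5.27 in WT and from -6.56 to -4.77 in hNAG-1 mice. Their log2 fold changes of 0.08 ± 0.58 and 0.24 ± 0.54 (SE) were smaller than the spread between pools, and both were below 0 within the shared slide and with normexp background correction.

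Type IV collagen was lower as a class by its median of -0.29, with 5 of 6 genes below 0. However, none was lower at the unadjusted threshold, against 4.07% of all genes, and none was higher. Without overlap, 1 lay below WT, against 6.57% of all genes. Within the shared slide the median was -0.14, and with quantile normalization it was -0.44. The difference lay in Col4a1 and Col4a2, which make up the common α1α1α2 network of basement membranes, and in Col4a5.

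Col4a1 read 3.90, 3.89 and 4.31 in WT and 3.31, 3.57 and 3.83 in hNAG-1 mice, a log2 fold change of -0.46 ± 0.19 (SE; limma, adjusted p = 0.405). Col4a2 read 4.03, 4.20 and 4.63 in WT and 3.63, 3.76 and 4.12 in hNAG-1 mice, a log2 fold change of -0.45 ± 0.21 (SE; limma, adjusted p = 0.457). Col4a1 did not overlap between genotypes, and Col4a2 overlapped by hNAG-1 replicate 3 over WT replicate 1. WT replicate 3 was the highest array for both genes and hNAG-1 replicate 1 the lowest, and the second probes gave -0.46 and -0.35. Without WT replicate 3 the log2 fold changes were -0.33 and -0.27, and with it as the only WT array -0.74 and -0.79. The genes stand head to head on chromosome 8 (GRCm38.p6), Col4a1 starting at 11312826 on the minus strand and Col4a2 at 11312805 on the plus strand. The start sites are 21 bases apart, and the genes overlap there.

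Col4a5, which joins α3 and α4 in the basement membranes of kidney and some other organs, read -2.34, -2.15 and -2.76 in WT and -2.64, -3.20 and -3.02 in hNAG-1 mice. Its log2 fold change was -0.54 ± 0.22 (SE; limma, adjusted p = 0.407), with hNAG-1 replicate 1 above WT replicate 3, and within the shared slide it was -0.22. Its neighbour Col4a6, 1275 bases away on chromosome X, read 0.38, 0.45 and 0.23 in WT and 0.49, 0.01 and 0.38 in hNAG-1 mice, a log2 fold change of -0.06 ± 0.16 (SE). Col4a3 read -4.76, -5.08 and -4.84 in WT and -4.96, -5.13 and -4.96 in hNAG-1 mice, and Col4a4, which overlaps it head to head on chromosome 1, read -1.13, -1.08 and -1.26 in WT and -1.17, -1.06 and -0.97 in hNAG-1 mice. The log2 fold changes of -0.13 ± 0.13 and 0.09 ± 0.12 (SE) did not exceed their errors, and a second probe had the opposite sign for each.

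**Figure D4:**
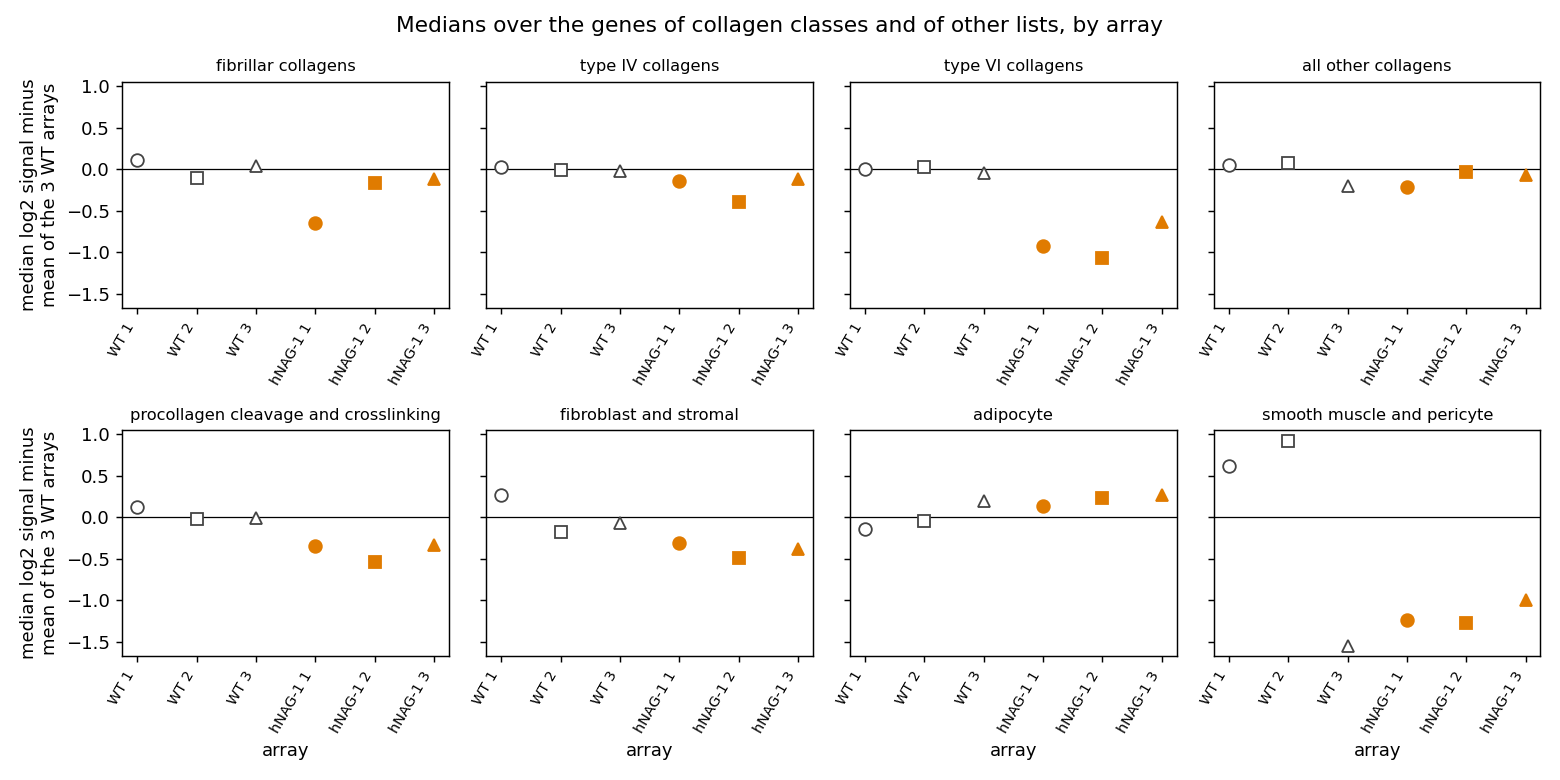
Median over the genes of each collagen class (upper row) and of 4 other gene lists (lower row) of the log2 signal minus the mean of the 3 WT arrays (y axis), by array (x axis), with open symbols for WT and filled symbols for hNAG-1. Type VI collagens are at -0.93, -1.07 and -0.64 on the hNAG-1 arrays, and the smooth muscle and pericyte list is at -1.55 on WT replicate 3, as low as on the hNAG-1 arrays.

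Of the multiplexins, Col18a1, whose end is released as endostatin, read 3.96, 4.03 and 4.01 in WT and 3.39, 3.67 and 3.48 in hNAG-1 mice. The WT arrays were close to each other, no hNAG-1 array reached them, and the log2 fold change was -0.49 ± 0.12 (SE; limma, adjusted p = 0.252), with -0.56 for the second probe. Col15a1, a basement membrane zone collagen of fat and muscle, read 2.38, 2.25 and 2.92 in WT and 2.30, 2.21 and 2.45 in hNAG-1 mice. Its log2 fold change was -0.20 ± 0.20 (SE; limma, adjusted p = 0.713), and 0.0047 without WT replicate 3. The second probe of Col15a1, well above background on all 6 arrays, gave -0.46.

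The 18 measured genes outside the fibrillar, type IV and type VI classes had a median log2 fold change of -0.18, which was -0.09 without hNAG-1 replicate 1, with 11 below and 7 above 0. Besides Col18a1, 3 of them were lower at an unadjusted p under 0.05 in limma, where 4.07% of all genes were lower. Col16a1, a FACIT collagen, read 3.91, 3.57 and 3.18 in WT and 2.59, 2.37 and 3.08 in hNAG-1 mice, a log2 fold change of -0.88 ± 0.27 (SE; limma, adjusted p = 0.308). The WT arrays differed among themselves (SD 0.365, n = 3), and the second probe of Col16a1 gave 0.01, so the 2 probes disagreed. Col12a1, a FACIT collagen bound to type I fibrils, read -4.69, -4.61 and -5.03 in WT and -5.11, -5.62 and -5.31 in hNAG-1 mice, a log2 fold change of -0.57 ± 0.19 (SE; limma, adjusted p = 0.340). Within the shared slide it was -0.33. Col28a1 read -6.08, -5.96 and -5.57 in WT and -6.38, -6.38 and -6.16 in hNAG-1 mice, a log2 fold change of -0.44 ± 0.17 (SE; limma, adjusted p = 0.394). It was well above background on all 3 WT arrays and on 1 hNAG-1 array, so its values lay at the edge of detection.

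Col25a1, a transmembrane collagen known from neurons, was the only gene of the 38 with a higher value at the unadjusted threshold. It read -6.10, -5.94 and -7.06 in WT and -5.43, -5.36 and -4.85 in hNAG-1 mice, a log2 fold change of 1.15 ± 0.34 (SE; limma, adjusted p = 0.298). It was well above background on 2 WT and 3 hNAG-1 arrays, WT replicate 3 being the lowest. Its second measured probe gave -0.04, and normexp background correction gave -0.29, so its direction was not settled.

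The other 12 measured genes did not pass the unadjusted threshold, and all overlapped between genotypes. Their log2 fold changes ran from -0.60 for Col13a1, a transmembrane collagen, to 0.47 for Col9a2, a FACIT collagen of cartilage. The 8 FACIT genes had a median of 0.10, with 3 below and 5 above 0, which was -0.20 within the shared slide and -0.43 with normexp, and the 4 transmembrane genes a median of -0.15. Col8a1 and Col8a2, the chains of the short network type VIII, were at -0.18 each, and Col14a1, a FACIT collagen of loose connective tissue, was at -0.25 ± 0.19 (SE).

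Probes of the same gene can bind different parts of its transcripts, and 26 collagen genes had several measured probes. Of their 31 other probes, 20 had the sign of the brightest one, and 15 genes had the same sign on all probes. For the brighter genes 14 of 19 other probes had the same sign. Opposite signs were found mainly where the brightest probe itself was near 0, with Col16a1 and Col25a1 as the exceptions.

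**Figure D5:**
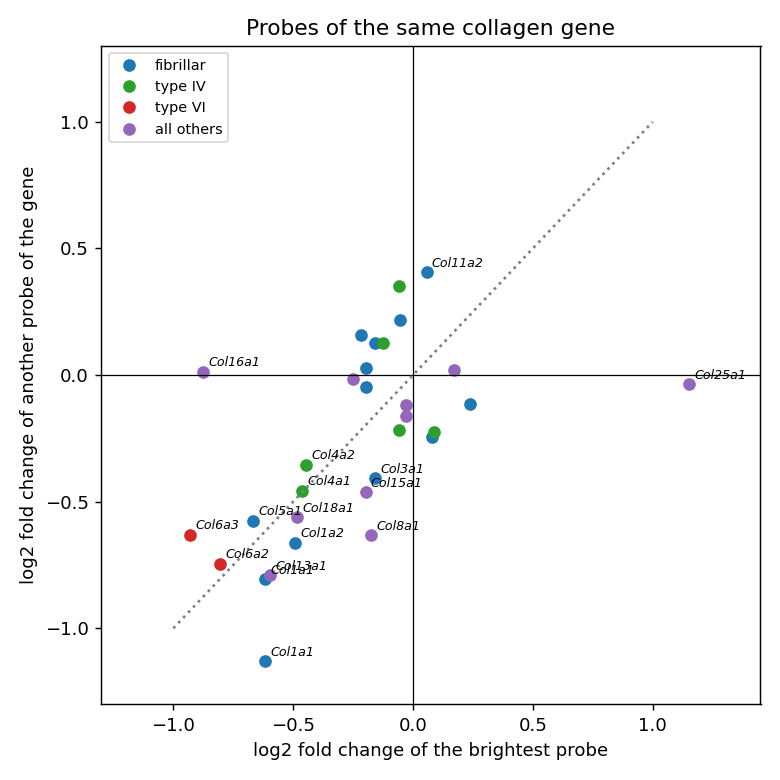
Log2 fold change (hNAG-1 over WT) of each of 31 other probes (y axis) against that of the brightest probe of the same gene (x axis), coloured by class, with the line of equal values dotted. The probes of Col1a1, Col1a2, Col4a1, Col4a2, Col5a1, Col6a2, Col6a3 and Col18a1 lie at the lower left, while Col16a1 and Col25a1 lie near 0 on the y axis.

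The genes that process collagen were examined on 3 lists. Enzymes and chaperones that modify and fold the chains in the endoplasmic reticulum had 17 measured genes of 18. Of these, 15 were below 0, with a median of -0.18. At an unadjusted p under 0.05 in limma 2 were lower and none higher, against 4.07% and 8.4% of all genes. P4ha2, a subunit of prolyl 4-hydroxylase, was at -0.61 ± 0.19 and P4ha3, another such subunit, at -1.91 ± 0.71 (SE), and these were the 2 that passed the unadjusted threshold. P4ha3 was well above background on 3 WT arrays and on 1 hNAG-1 array, the latter being as high as WT, so its groups overlapped and its fold change rests on 2 arrays where it was not well above background. Fkbp10, a collagen chaperone of the endoplasmic reticulum, was at -0.42 ± 0.18 and Leprel2, a prolyl 3-hydroxylase now named P3h3, at -0.42 ± 0.20 (SE). Serpinh1, the collagen chaperone HSP47, was chosen after its values were seen, for its departure from most of the list over all 6 arrays. It read 6.70, 6.45 and 6.81 in WT and 6.52, 6.93 and 6.98 in hNAG-1 mice, a log2 fold change of 0.16 ± 0.18 (SE; limma, adjusted p = 0.739). Within the shared slide, with 1 hNAG-1 array, it was -0.13, where the median of the list was -0.22.

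The enzymes that trim procollagen outside the cell and crosslink the fibrils lay on one side. All 11 measured genes of 13 were below 0, with a median of -0.40. At the unadjusted threshold 3 were lower, against 4.07% of all genes. Pcolce2, an enhancer of the procollagen C-proteinase, read 2.44, 2.10 and 3.07 in WT and 1.68, 1.57 and 1.58 in hNAG-1 mice, a log2 fold change of -0.93 ± 0.26 (SE; limma, adjusted p = 0.276). Bmp1, the C-proteinase itself, was at -0.43 ± 0.16, and the lysyl oxidase relatives Loxl1 and Loxl2, which form crosslinks, were at -0.40 ± 0.15 and -0.48 ± 0.21 (SE).

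Collagen receptors, with 12 measured genes of 13, had a median of -0.11, 8 below and 4 above 0. None was lower at the unadjusted threshold, against 4.07% of all genes, and 1 was higher, against 8.4%. Cspg4, the proteoglycan NG2, which binds type VI collagen and marks pericytes, was the only one higher. It read 1.60, 1.67 and 1.73 in WT and 2.77, 2.74 and 2.50 in hNAG-1 mice, a log2 fold change of 1.00 ± 0.12 (SE; limma, adjusted p = 0.169), opposite to the type VI chains. The integrin subunits Itga1 and Itgb1, which pair into a collagen receptor, were at -0.42 ± 0.21 and -0.28 ± 0.14, and Antxr2, a type IV and VI collagen receptor, at -0.21 ± 0.12 (SE).

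Markers of cell types in the tissue were set beside the collagens. Fibroblast and stromal markers had 13 of 15 genes below 0, with a median of -0.32. At an unadjusted p under 0.05 in limma 4 were lower, against 4.07% of all genes. The summed signal of these markers on the log2 scale was 8.96 to 9.10 in WT and 8.74 to 8.97 in hNAG-1 mice. Adipocyte markers had 11 of 12 above 0, with a median of 0.24. At the unadjusted threshold 2 were higher, against 8.4% of all genes. The summed signal of adipocyte markers was 10.9 to 11.2 in WT and 11.2 to 11.5 in hNAG-1 mice. Macrophage markers had a median of -0.26 with 10 of 12 below 0, and endothelial markers -0.23 with 9 of 11 below 0. Their summed signals were 7.19 to 7.56 and 6.01 to 6.59 in WT and 7.27 to 7.30 and 5.75 to 6.31 in hNAG-1 mice. Mesothelial markers had a median of -0.18 with 7 of 8 below 0, and a summed signal of 6.29 to 6.31 in WT and 5.84 to 6.24 in hNAG-1 mice. The part of these cell types in the lower collagen values was not tested.

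Smooth muscle and pericyte markers had the largest median of the cell type lists after exocrine pancreas, -1.11, with 11 of 12 below 0. At the unadjusted threshold 3 were lower, against 4.07% of all genes, but the values followed single arrays. The summed signal of the list was 8.56, 8.86 and 6.45 in WT and 6.53, 6.34 and 6.89 in hNAG-1 mice, so that WT replicate 3 was like the hNAG-1 arrays. The pericyte genes Rgs5, Kcnj8 and Abcc9 departed from this, with log2 fold changes of 0.06, -0.02 and -0.16. Each of them was highest in WT replicate 3. Against this array alone the median of the type VI collagens was -0.76, of the fibrillar collagens -0.22 and of the type IV collagens -0.18. Exocrine pancreas markers had a summed signal of 4.87 in WT replicate 2 and 2.08 to 2.49 on the other 5 arrays, and without that array the type VI median was -0.88. Skeletal muscle markers ran from 5.68 in WT replicate 3 to 7.92 in WT replicate 1 and from 6.01 in hNAG-1 replicate 1 to 8.58 in hNAG-1 replicate 2, and without hNAG-1 replicate 2 the type VI median was -0.78. Lymphocyte markers were highest in hNAG-1 replicate 2, at 2.31 against 0.911 to 1.55 elsewhere. Erythrocyte markers ran from 6.99 to 7.38, and epithelial markers of skin and breast from 0.512 to 0.988, over all 6 arrays.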

How the data were processed

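RNA of abdominal WAT from 3 WT and 3 hNAG-1 pools of 2 mice was labelled with Cy3 and hybridised to single-colour Agilent arrays. The methods of the paper name an Affymetrix array, but the deposited scanner files are from Agilent. The authors deposited the processed signal of each spot, an intensity on a linear scale after background subtraction by Agilent Feature Extraction 9.5 (submitters' processing notes), and a table that equals it in all 45018 rows, so no normalization between arrays was included.

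From these values, repeated spots were averaged per probe without control and outlier spots, and each value was expressed as log2 signal minus the array's 75th percentile. A gene, named as in the scanner files, was represented by its brightest probe, kept if well above background on at least 3 of 6 arrays. The test was limma 3.58.1 (lmFit, eBayes; R 4.3.3), two-sided, and p-values were adjusted by Benjamini-Hochberg over all 21232 genes, with a threshold of 0.05. The number of arrays limits the precision, and p-values measure the spread between pools. The fit was also run on simulated data, with genes that varied independently and no slide or pool effects. Those runs cannot show how the fit handles such effects. Pearson correlations between arrays were 0.965 to 0.988, and no 2 arrays held the same values.

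Values on every array are given for the measured fibrillar, type IV, type VI and multiplexin genes and for genes of other classes with an unadjusted p under 0.05. Of each list of processing genes and receptors, up to 4 genes with the largest moderated t are named. The collagen genes, the lists and the tests were chosen with earlier results of these data known. Alternatives were the array median as the centre, quantile normalization, normexp (offset 50), a filter on all 6 arrays or none at all, averaged probes per gene, a fit by probe, variances with an intensity trend, a slide term (fixed or random) and the shared slide alone, the replicate number as a block, the deposited value table, updated gene names and each array left out in turn. WT replicate 3 as the only WT array was added after seeing the data, with its spread assumed to be that of the hNAG-1 arrays. Promoter windows and gene neighbours are from RefSeq on GRCm38.p6, and the part of a gene that a probe binds was not analysed here.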

Additional observations from a re-analysis of the deposited data

How the results depend on the processing

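Over 21 alternatives and 26 collagen genes described by array, 423 values kept their direction and side of an unadjusted p of 0.05 in limma, 63 lost it, 21 gained it and 36 turned in sign. Of these alternatives, the deposited value table equals the processed signal and could change no value. The replicate block, both changes of the detection filter, the fit by probe and the intensity trend could change errors and p-values only, not fold changes. Updated gene names left the fold changes of these genes as they were. A fixed slide term and the shared slide alone give the same fold changes and are a single comparison for direction. The counts of kept values therefore overstate the number of independent checks. Col6a1 and Col6a2 stayed below 0 with an unadjusted p under 0.05 in all 21 alternatives, Col5a2 in 20, Col18a1 in 19 and Col6a3 in 17. Signal near background limits the dim genes: Col28a1, Col25a1 and Col11a1 were not tested when all 6 arrays had to be well above background.

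The count of 11 lower collagen genes was 2 with normexp background correction, 5 to 11 leaving out 1 array at a time and 7 with WT replicate 3 as the only WT array. The count of 1 higher gene was 0 with normexp, with a filter on all 6 arrays, with averaged probes, with a fixed slide term and on the shared slide alone, 0 to 2 leaving out 1 array, and 2 with WT replicate 3 as the only WT array. With an intensity trend and robust variances, 2 genes passed the adjusted threshold. The median log2 fold change of the type VI collagens was -0.69 and of all other collagens -0.38 with normexp. That of the fibrillar collagens was -0.65 with a fixed slide term and on the shared slide alone, -0.39 with normexp and -0.083 with averaged probes. That of the type IV collagens was -0.14 with a fixed slide term and on the shared slide alone, and -0.44 with quantile normalization. Both slide settings compare hNAG-1 replicate 1 with the WT arrays, because the other slide held no WT array. Their fold changes are therefore identical. The cause of these moves was not tested.

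Signs turned as follows. With normexp, the log2 fold change was -0.39 for Col11a1, -0.39 for Col11a2, -0.46 for Col24a1, -0.29 for Col25a1, 0.074 for Col3a1, -0.078 for Col4a4, 0.0188 for Col4a6 and 0.17 for Col5a3. With averaged probes it was -0.083 for Col24a1, 0.00047 for Col4a3, -0.070 for Col4a4, 0.026 for Col4a6 and 0.082 for Col5a3. With the slide term, and on the shared slide alone, it was -0.77 for Col11a1, -1.02 for Col24a1, -0.0165 for Col4a4 and 0.14 for Col4a6. With quantile normalization it was -0.035 for Col11a2, and with WT replicate 3 as the only WT array -0.67 for Col24a1, 0.24 for Col27a1 and 0.068 for Col4a6. Leaving out 1 array, it ran from -0.16 to 0.74 for Col11a1, -0.15 to 0.16 for Col11a2, -0.33 to 0.0047 for Col15a1, -0.27 to 0.63 for Col24a1, -0.16 to 0.083 for Col4a6 and -0.27 to 0.35 for Col5a3. Apart from Col25a1, the differences of these genes did not pass an unadjusted p of 0.05 over all 6 arrays.

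WT and hNAG-1 arrays share replicate numbers. Deviations of same-numbered arrays from their group means correlated at 0.0957, 0.51 and 0.0936, and those of differently numbered arrays at -0.42 to 0.343. With so few arrays, whose deviations sum to 0 within each group, these values cannot settle whether the numbers pair the samples. The main fit took no pairing. With the replicate block, 12 collagen genes were lower and 1 higher at an unadjusted p under 0.05 in limma, against 4.37% and 7.06% of all genes. None passed the adjusted threshold. The class medians were the same, because in this balanced design the block cannot change a fold change.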

Other observations

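Further collagen genes lie on the array under older names that the naming rule did not take. The probe named 1110001D15Rik, a synonym of Col6a4 in the RefSeq gene table, was well above background on all 6 arrays and read 1.82, 1.55 and -3.80 in WT and -0.47, -2.55 and -2.90 in hNAG-1 mice. Its log2 fold change was -1.83 ± 1.67 (SE), with WT replicates 1 and 2 high, which were also the arrays with high smooth muscle markers. The probe named E330026B02Rik, matched through its accession to Col6a6, read -5.09, -4.97 and -5.63 in WT and -5.49, -3.65 and -4.75 in hNAG-1 mice, a log2 fold change of 0.60 ± 0.49 (SE). Neither of these type VI chains resembled Col6a1, Col6a2 and Col6a3 in its spread over the arrays. A probe for Col26a1, named Emid2, and a further probe matched to Col11a1 were not well above background on any array.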
